A study of Mus musculus with 4 samples.

Results

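Ddit3, followed as the mouse transcript ENSMUST00000026475, was chosen together with Atf4 (ENSMUST00000109605) because both messages are textbook examples of translation controlled by upstream reading frames. Of the 2 listed transcripts, 1 had a line in the count files, out of 23175 transcripts counted in at least 1 library. ENSMUST00000109605 had no line in any of the 4 files, so Atf4 was not analysed here and was not read as 0. The names come with the rule that lists the 2 transcripts, since the files give transcript IDs only. The libraries hold ribosome-protected RNA fragments (footprints) from brains of 21-day-old (P21) mice of the C57BL/6J strain. Neuron libraries came from Snap25::eGFP-RpL10a mice and astrocyte libraries from Aldh1l1::eGFP-RpL10a mice, in which a GFP-tagged protein of the large ribosomal subunit is made under the control of the Snap25 or the Aldh1l1 gene, so that ribosomes of that cell type can be captured with antibodies to GFP. There were 2 libraries per cell type, each from 2 pooled brains, so every spread below is one between pools.

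Ddit3 encodes CHOP, a transcription factor of the C/EBP family that takes part in the response to stress of the endoplasmic reticulum and, when stress lasts, in cell death. Atf4 encodes the transcription factor that raises Ddit3 transcription when the kinases of the integrated stress response phosphorylate the initiation factor eIF2. In mammals the leader of the Ddit3 message, the part before the coding sequence, carries a short upstream reading frame that holds back translation of the coding sequence while eIF2 is not phosphorylated. Ribosomes that translate such a frame leave footprints upstream of the coding sequence.

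Part of the start of the Ddit3 transcript as annotated in RefSeq is shown because it holds ATG triplets, the letters of a start codon, in capitals. The stretch covers bases 21 to 50 of the transcript (build GRCm38.p6, chr10:127290813-127290842, plus strand). The position of the triplets relative to the coding sequence was not looked up.
Ddit3: acacgtcgattatatcATGttgaagATGag
The triplets begin at bases 37 and 46, counted from 1 at the transcription start. They are 9 bases apart and in the same reading frame, and no stop codon follows in that frame before the end of the window at base 50. Searched for the letters ATG on the coding strand only, 44.3% of the 32851 RefSeq windows covering the first 50 transcribed bases hold at least 1 such triplet, and 5.79% hold a pair in frame with no stop codon between. These matches describe the letters of the window and show no ribosome position. The window also lies inside the RefSeq span of the neighbouring gene Mbd6.

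The counts are given per transcript region, named by the letters a to d. The sources used here do not say which part of the transcript each letter stands for, nor how long each region is, so that whether region a is the leader of Ddit3 was not tested. Over all transcripts region a held 6.987% and 6.746% of the counts in neuron 1 and neuron 2, against 7.769% and 8.206% in astrocyte 1 and astrocyte 2. Library totals were 7210269 and 12833187 counts for the neuron libraries and 7292950 and 7968406 for the astrocyte libraries. Neuron and astrocyte marker genes could not be looked up, because no table at hand names the transcript IDs, so the labels were not checked against markers.

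Ddit3 carried more region a than region b counts in every library. Region a of Ddit3 had 57 and 100 counts in neuron 1 and neuron 2, against 77 and 105 in astrocyte 1 and astrocyte 2. Region b had 25 and 75 counts in the neuron libraries, against 25 and 33 in the astrocyte libraries. Regions c and d of Ddit3 had no line in any library. With 497 Ddit3 counts in all, a count of 0 allows up to 3 counts, counting error only, in each of these regions of a library.

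**Figure D1:**
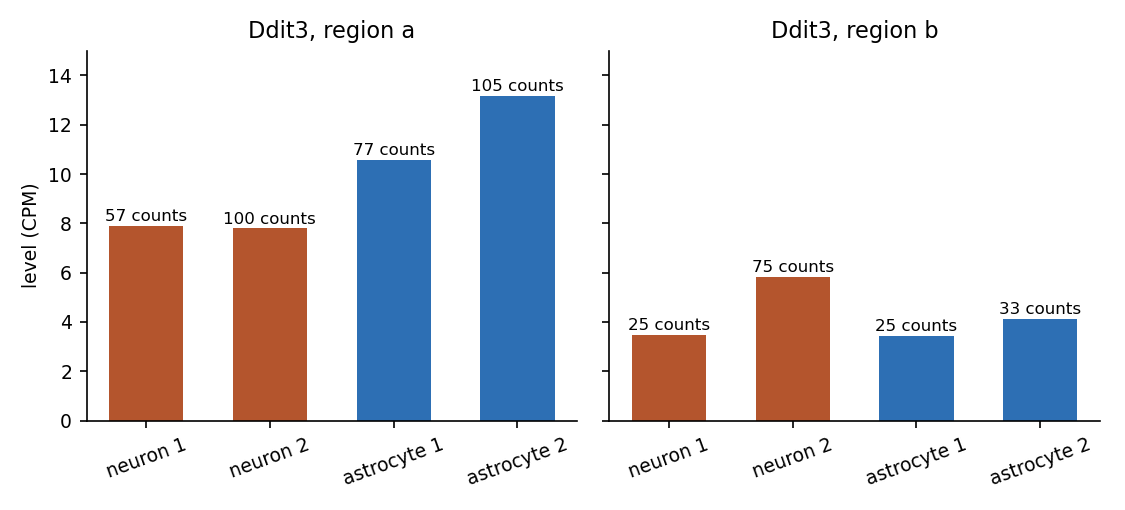
Bars give the level of Ddit3 region a (left) and region b (right) in CPM, the count scaled to the library total, for each neuron (brown) and astrocyte (blue) library, with the raw count above each bar. Region a lies at 7.905 and 7.792 CPM in the neuron libraries, below the 10.56 and 13.18 CPM of the astrocyte libraries, while region b overlaps between the cell types.

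Scaled to the library total, region a of Ddit3 measured 7.905 and 7.792 CPM in neuron 1 and neuron 2 and 10.56 and 13.18 CPM in astrocyte 1 and astrocyte 2. The groups did not overlap, and the neuron libraries were nearly equal. Region a averaged 7.85 ± 0.080 CPM in the neuron pools and 11.9 ± 1.85 CPM in the astrocyte pools (SD, n = 2 per cell type). The neuron SD rests on 2 libraries with 57 and 100 region a counts, so it is no measure of precision. The fitted log2 fold change, neuron over astrocyte, was -0.70 (SE 0.242), and it did not pass the threshold of 0.05. The adjusted p was 0.0884 over all region a and region b rows (edgeR quasi-likelihood test, unadjusted p 0.0186). Its 95% interval, not adjusted for the number of rows, ran from -1.24 to -0.15. Among the 9126 region a rows tested, 13.6% were called in either direction and 11.7% lower in neuron samples. Both neuron libraries lay below both astrocyte libraries in 31.5% of these rows, so that Ddit3 shares its lack of overlap in this direction with many transcripts.

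The region a change kept its sign with any 1 library left out. Without neuron 1 the log2 fold change of region a was -0.71, and without neuron 2 it was -0.66. Without astrocyte 1 it was -0.84 and without astrocyte 2 it was -0.51. In these edgeR fits the lone library of a cell type was assumed to vary as the other pair did. Whether region a passed was therefore not read from them.

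Region b of Ddit3 overlapped between the cell types and was not called. It measured 3.467 and 5.844 CPM in neuron 1 and neuron 2, against 3.428 and 4.141 CPM in astrocyte 1 and astrocyte 2. The neuron libraries lay 1.686-fold apart and enclosed the higher astrocyte library. The log2 fold change, neuron over astrocyte, was 0.23 (SE 0.356, 95% interval -0.57 to 1.04; edgeR adjusted p = 0.701), and 16.6% of the 18175 region b rows tested were called. Without neuron 2 the value turned to -0.20, and without neuron 1 it was 0.52, with edgeR adjusted p of 0.794 and 0.238.

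Summed over its regions, Ddit3 measured 11.37 and 13.64 CPM in neuron 1 and neuron 2 and 13.99 and 17.32 CPM in astrocyte 1 and astrocyte 2. The groups did not overlap, though neuron 2 and astrocyte 1 were nearly equal; 25.6% of the 18819 transcripts tested had both neuron libraries below both astrocyte libraries. The log2 fold change was -0.44 (SE 0.221, 95% interval -0.95 to 0.07) and did not pass (edgeR adjusted p = 0.216), beside 17.1% of transcripts called. The change stayed below 0 in all 9 alternatives run, at -0.56 without neuron 2, which leaves 1 neuron library. In pools of whole brains, any change in Ddit3 footprints per cell cannot be told apart from one in the number of cells translating Ddit3.

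The balance of the regions set Ddit3 near the top of transcripts of similar depth in both cell types. For every 100 region b counts, Ddit3 had 228 region a counts in neuron 1, with a 95% Wilson interval of 143.1 to 363.3. Neuron 2 had 133.3 per 100, with an interval of 98.95 to 179.7. Region a thus exceeded region b beyond counting error in neuron 1 but not in neuron 2. Astrocyte 1 had 308 per 100 (196.9 to 481.8) and astrocyte 2 had 318.2 per 100 (215.7 to 469.3). Both neuron libraries lay below both astrocyte libraries, but the interval of neuron 1 overlapped those of the astrocyte libraries, while that of neuron 2 lay below both. With counts summed within a cell type, Ddit3 had 157 region a counts per 100 in neuron samples (122.3 to 201.6) and 313.8 per 100 in astrocyte samples (233.8 to 421.2). These intervals cover counting error only. As shares of regions a and b together, region a made up 63.3% ± 8.75 in the neuron pools and 75.8% ± 0.42 in the astrocyte pools (SD, n = 2 per cell type).

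**Figure D2:**
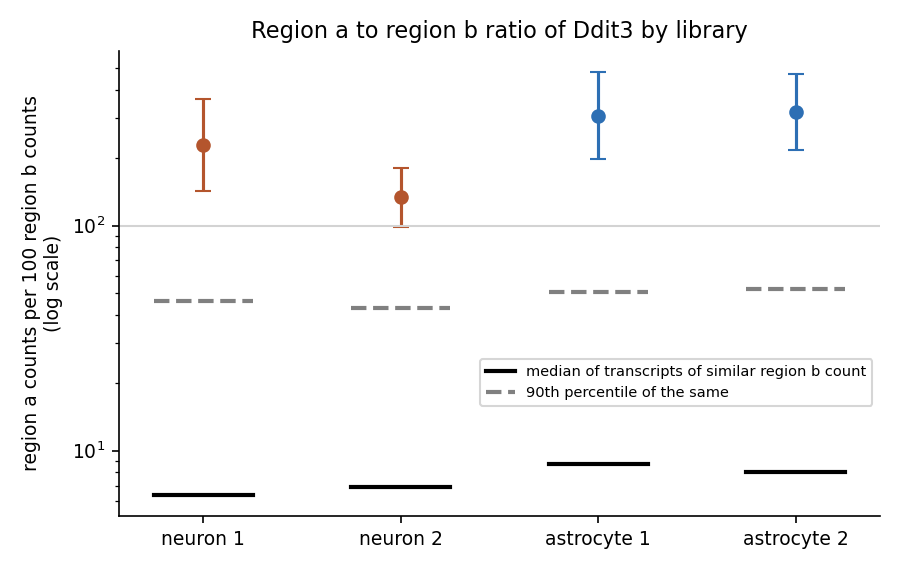
Points give the region a counts of Ddit3 per 100 region b counts in each neuron (brown) and astrocyte (blue) library on a log scale, with 95% Wilson intervals, and a grey line marks 100. Black and dashed lines give the median and the 90th percentile of transcripts of similar region b count in that library; Ddit3 lies above the dashed line, which runs between 42.86 and 52.3, in every library.

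Tested within libraries, the a to b ratio of Ddit3 was lower in neuron samples by a log2 change of -0.93 (SE 0.407, 95% interval -1.74 to -0.12). The change had an unadjusted p of 0.0258 and did not pass after adjustment over the 8778 transcripts tested (edgeR quasi-likelihood test of the interaction of region and cell type, adjusted p = 0.312). Of these transcripts 1.08% were called. The median log2 change of all of them was also below 0, at -0.21, and both neuron libraries lay below both astrocyte libraries in 34.2% of them and in 30.0% of those of similar region b count. With region a and region b each scaled by its own library sum, which centres the ratios of all transcripts near 0, the change of Ddit3 was -0.69 (edgeR adjusted p = 0.631) beside a median of 0.03. A larger change than that of Ddit3 toward astrocytes was fitted in 6.69% of all tested transcripts, and in 11.7% of the 443 tested transcripts of similar region b count, where standard errors are wider.

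The size of the change in the ratio turned on the neuron libraries. Without neuron 1 the log2 change was -1.23 (edgeR adjusted p = 0.226), without neuron 2 it was -0.46 (adjusted p = 0.853). Without astrocyte 1 or astrocyte 2 it stayed at -0.94 and -0.89. The log2 ratios of neuron 1 and neuron 2 lay 0.76 apart, those of the astrocyte libraries 0.05. In 238 transcripts of similar region b count with at least 10 region a counts in each library, the median gap was 0.46 between the neuron libraries, and 26.5% of them had a wider gap than Ddit3. The corresponding median between the astrocyte libraries was 0.42, and 93.7% had a wider gap than Ddit3. Ddit3 had 57 to 105 region a counts per library, and transcripts nearer the limit of 10 carry more counting error in these gaps. The shares with a wider gap were not corrected for this.

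**Figure D3:**
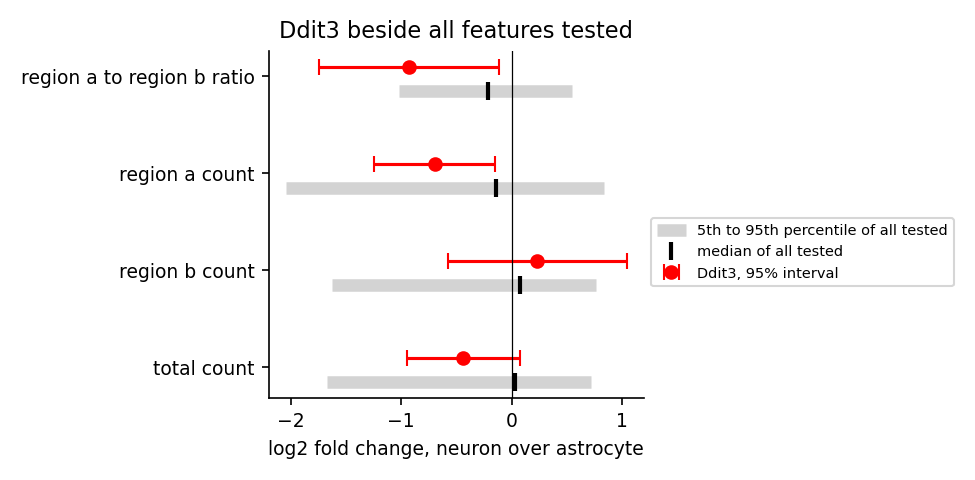
Red points give the log2 fold change of Ddit3, neuron over astrocyte, with its 95% interval for the region a to region b ratio and for the counts of region a, region b and the whole transcript; grey bars run from the 5th to the 95th percentile of all features tested and black ticks mark their median. The ratio of Ddit3 (-0.93) and its region a (-0.70) lie below 0, region b (0.23) lies above 0, and all 4 lie inside the grey bars.

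To place the ratio, Ddit3 was ranked among the 2140 transcripts, identical counts taken once, whose region b count over all libraries lay within 1.5-fold of its 158, that is from 106 to 237. In neuron samples Ddit3 ranked 31 from the top, with 1.4% of the transcripts above it, and in astrocyte samples it ranked 12, with 0.514% above it. The median transcript of this set had 7.009 region a counts per 100 of region b in the neuron pools and 8.596 in the astrocyte pools. The 90th percentile stood at 42.72 and 50.61 per 100 in neuron and astrocyte samples, still below the 157 and 313.8 of Ddit3. By library, Ddit3 ranked 20 in neuron 1 and 41 in neuron 2, against 11 in astrocyte 1 and 17 in astrocyte 2. Region a outnumbered region b in 2.94% of the set in neuron samples and 3.69% in astrocyte samples. Ddit3 was among the 42 transcripts (1.96%) in which this held in every library, while 241 (11.3%) had no region a count at all.

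Ddit3 stayed near the top under other definitions of similar transcripts. Within 1.2-fold of its region b count it ranked 13 of 929 in neuron and 4 of 929 in astrocyte samples, and within 2-fold it ranked 52 and 22 of 3700. Matched instead on region a plus region b counts, a choice made after seeing the data, it ranked 27 and 10 of 3790. That match left out 53 transcripts with region a counts but no region b count, which have no finite ratio. Counted in, all 53 would stand above Ddit3, so these 2 ranks are too favourable. Ratios as high as that of Ddit3 became rarer with growing region b counts. The region b count is also the denominator of the ratio, so this trend is in part built in. Over all libraries Ddit3 had 214.6 region a counts per 100 region b counts. Among transcripts with 50 to 100 region b counts 2.43% lay above that ratio, among those with 200 to 500 0.367%, and among the 1250 with at least 5000 none did. The ratios are not corrected for region lengths, so they rank transcripts by counts and not by footprint density.

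**Figure D4:**
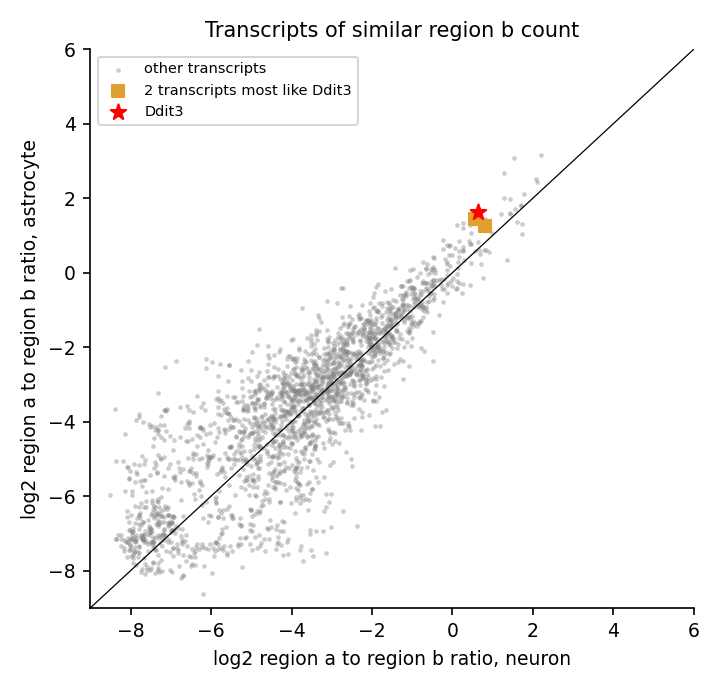
Each grey point is 1 of the transcripts of similar region b count, placed by its log2 region a to region b ratio (0.5 added to both counts) in neuron (x axis) and astrocyte samples (y axis); the line marks equal ratios. Ddit3 (red star) and the 2 transcripts most like it (squares) lie near the upper right end, above the line.

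By pattern, ENSMUST00000107893 and ENSMUST00000170489 were most like Ddit3 among 2244 other transcripts of similar region b count, with root mean square differences of the log2 ratio over the 4 libraries of 0.281 and 0.285, against a median of 5.02. ENSMUST00000107893 had 209.7 and 145.9 region a counts per 100 region b counts in the neuron libraries and 238.9 and 241.2 in the astrocyte libraries. ENSMUST00000170489 had 169.2 and 135.4 in the neuron libraries and 235.7 and 315.4 in the astrocyte libraries. In both, as in Ddit3, neuron 2 was the lowest library and the cell types did not overlap, which follows in part from choosing them by likeness. The files pair neither ID with a gene.

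How reads that fit more than one gene were counted is not given in the sources used here. No other transcript shared all 4 region b counts of Ddit3. The symbol Ddit3 is carried by 2 Ensembl gene IDs. In RefSeq the Ddit3 gene overlaps Mbd6 at its start and Mars1, which encodes a methionyl-tRNA synthetase, at its end. The stretch of Ddit3 shown above, chr10:127290813-127290842, lies wholly inside the Mbd6 gene (chr10:127281956-127290869). If strand was not used, footprints of these neighbours at the ends of the gene could not be told apart from those of Ddit3, and this part in the counts of region a was not tested. Of the 25 genes listed around the integrated stress response, such as its kinases, phosphatase subunits and the targets Trib3 and Asns, none could be looked up, since the reference tables hold 0 transcript IDs.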

How the data were processed

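The authors deposited whole-number counts of footprint fragments per transcript region, with no header. Tagged ribosomes were captured and digested with RNase I on beads, per the labels' protocols. STAR 2.3.1z8 and Bowtie2 2.2.2, FastQC 0.11.2 and Trimmomatic 0.32, as well as edgeR and bedtools, are named without role per the submitters' processing notes. For genome build, annotation and strand use: not given in the sources used here. A region without a line was read as 0 for transcripts with a line in any file.

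Groups follow the labelled cell type. Region a and b rows were fitted together with the edgeR 4.0.16 quasi-likelihood test in R 4.3.3 (TMM, filterByExpr with a minimum count of 10, cell type as the only term, Benjamini-Hochberg over all rows), and totals over 4 regions likewise. The ratio was tested as the interaction of region and cell type with a term per library and 1 library total for both regions. Standard errors are the size of the log2 fold change over the square root of F. An exact permutation test of 2 against 2 libraries cannot go below p = 0.333 and was not used. The edgeR fits of region rows, totals and the ratio with all libraries were tested on simulated counts with known changes; the alternatives were not. DESeq2 1.42.0, other scalings and filters, a replicate block and left-out libraries were tried as alternatives.

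The members and lists were chosen with earlier results of these data known. Named transcripts are the listed IDs and the 2 nearest in log2 ratio (0.5 added to each count). The marker and stress response lists could not be used without gene names. Same-numbered libraries share only a number, as no label pairs them.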

Additional observations from a re-analysis of the deposited data

How the results depend on the processing

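The direction of the Ddit3 values for region a, the ratio and the total held in all 9 alternatives each, with log2 changes of -0.838 to -0.513, -1.23 to -0.459 and -0.589 to -0.263. Region b held its direction in 8 of 9, with 1 library left out between -0.198 (without neuron 2) and 0.518. Region a stood at -0.713 without neuron 1 and the total at -0.558 without neuron 2, each with 1 neuron library left. The lowest adjusted p given below for region a and for the total came from these 2 fits. In both, more of all features were called than in the main fit, so no call was read from them. The edgeR and DESeq2 adjusted p ranged from 0.0137 to 0.592 for region a, 0.226 to 0.853 for the ratio, 0.238 to 0.94 for region b and 0.0479 to 0.825 for the total; DESeq2 gave the ratio no adjusted p (unadjusted p = 0.149). With 1 library left out, neuron samples had 133.3 to 228 region a per 100 region b counts. The share above Ddit3 was 0.888% to 1.87% in neuron and 0.467% to 0.748% in astrocyte samples. Matched on region a plus b counts, it was 0.686% and 0.237%, too low as 53 transcripts were left out. No other cause was tested.

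The replicate block gave -0.694 for region a, -0.899 for the ratio, 0.189 for region b and -0.443 for the total and changed no call; same-numbered libraries deviated from their group means with r = -0.073 over 27301 rows.

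Over all transcripts, ratio calls numbered 95, but 11 with DESeq2, 12 with each region's own total and 1 to 207 with 1 library left out. Region a calls numbered 1237, but 1898 with no filter and 704 to 2481 with 1 library left out. For region b 3010 became 1459 to 8378, and for totals 3219 became 1523 to 8958. Library totals alone moved the median log2 change of totals from 0.03 to 0.15 and the region b calls higher in neuron samples to 1415 of 3340, against 849 of 3010. The fits with 1 transcript per set of identical counts and the match on region a plus region b were chosen after seeing the data. Ddit3 had 25 to 75 region b counts per library, and the SE of its log2 ratio change, 0.407, compares with a median SE of 0.383 over all transcripts tested and 0.556 over those of similar region b count.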
